A study of Mus musculus with 18 samples.

Results

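The genes described are 8 genes through which tissues call in neutrophils: the chemokines Cxcl1, Cxcl2, Cxcl3 and Cxcl5, their receptor Cxcr2, the growth factors Csf3 and Csf2, and the cytokine Il17a. They were taken by symbol out of the 50600 genes of the series. RNA was sequenced from 18 subcutaneous B16F10 tumors, a pigmented mouse melanoma line grown in the right flank of C57BL/6 mice, in 9 groups of 2 tumors each. CDN2 (CL656 in the labels) is a cyclic dinucleotide that activates STING, in exoCDN2 this compound is carried by extracellular vesicles (EVs), and all agents were injected into the tumor. After 1 dose there were PBS, unloaded EVs, exoCDN2 with 0.1 µg of CDN2, free CDN2 at 20 µg and free CDN2 at 100 µg. After 2 doses there were PBS, exoCDN2 at 0.1 µg, free CDN2 at 20 µg, and free CDN2 with no amount in the sample titles. The treatment text shared by all samples names 20 µg as the amount of CDN2, so whether this last group received an amount other than 20 µg is not known, and the sources used here do not tell how it differs from the group titled 20 µg. Tumors were taken 24 h after the last dose, and the repeat dose was given 3 days after the initial dose. The exoCDN2 and free CDN2 tumors therefore differ in the amount of CDN2 as well as in its form. By the study's methods the mice were female and were bought at 5 to 6 weeks of age, and the tumors are transplants of a single cell line.

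CXCL1, CXCL2, CXCL3 and CXCL5 carry the ELR motif before their paired cysteines and act on CXCR2, a receptor that neutrophils use to leave the bone marrow and to enter inflamed tissue. Their genes lie near each other in a cluster on mouse chromosome 5, and NF-κB is a well-known activator of this gene cluster. Csf3 encodes G-CSF, which drives the production and release of neutrophils, Csf2 encodes GM-CSF, and IL-17A is a T cell cytokine known for raising both these growth factors and the CXCR2 ligands in epithelial and stromal cells. STING signaling ends in interferon regulatory factors and in NF-κB. In GRCm38 the ligand genes lie on the plus strand at chr5:90891241-90893115 (Cxcl1), chr5:90903871-90905938 (Cxcl2), chr5:90786103-90789600 (Cxcl3) and chr5:90759360-90761624 (Cxcl5). Cxcr2 lies at chr1:74153989-74161246, Il17a at chr1:20730905-20734496, Csf3 at chr11:98701263-98703629 and Csf2, on the minus strand, at chr11:54247271-54249667.

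The promoters of 3 ligands are shown because these genes share 2 short motifs close to their starts. The 100 bases printed lie directly upstream of the earlier of the RefSeq and GENCODE starts on the plus strand of GRCm38 chromosome 5, from RefSeq (GRCm38.p6). Capitals mark the 2 stretches of at least 8 bases that all 3 sequences share, GGGAATTTCCC, which holds an NF-κB type sequence, and ATAAAAGG, which is TATA-like.
Cxcl1, chr5:90891141-90891240: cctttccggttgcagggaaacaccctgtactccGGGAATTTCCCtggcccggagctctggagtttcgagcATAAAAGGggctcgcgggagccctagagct
Cxcl2, chr5:90903771-90903870: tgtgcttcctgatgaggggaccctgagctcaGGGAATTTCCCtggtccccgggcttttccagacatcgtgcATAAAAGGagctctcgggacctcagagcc
Cxcl3, chr5:90786001-90786100: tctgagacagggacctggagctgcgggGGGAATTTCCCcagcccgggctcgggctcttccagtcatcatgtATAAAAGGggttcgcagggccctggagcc

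Counted from the GENCODE start, GGGAATTTCCC began at -67 in Cxcl1, -69 in Cxcl2 and -75 in Cxcl3, and ATAAAAGG began at -30, -29 and -31. RefSeq places the start of Cxcl2 at 90903899 and GENCODE at 90903871, so positions from the RefSeq start differ for that gene. Of 32851 RefSeq windows of 300 bases (250 before to 50 after a start), searched on both strands, 14 (0.0426%) held GGGAATTTCCC and 577 (1.76%) held ATAAAAGG. Windows were found for 6 of the 8 genes. Those of Csf2, Cxcr2 and Il17a held neither stretch, and Cxcl5 and Csf3 had no entry. The TATA box letters TATAAA, which overlap ATAAAAGG in Cxcl3, were in the windows of Cxcl3 and Il17a and in 13.6% of all windows. The search was decided on after the sequences had been read. A match describes the letters only, and binding was not measured.

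**Figure D1:**
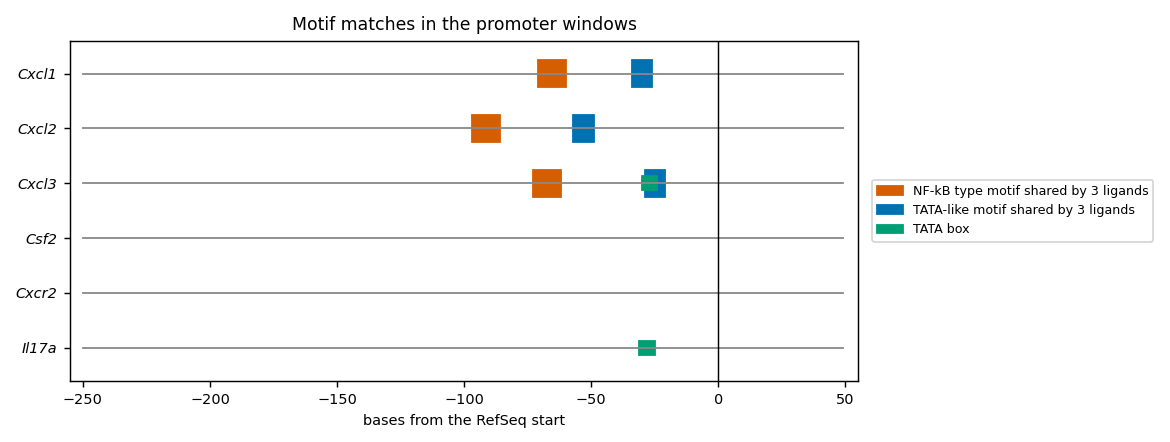
Motif matches (colored boxes) by distance in bases from the RefSeq start in the 6 available promoter windows of 300 bases. Cxcl1, Cxcl2 and Cxcl3 each hold the NF-κB type motif and the TATA-like motif, whose boxes sit farther upstream in Cxcl2, where RefSeq places the start farther downstream than GENCODE does.

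The libraries held 21608895 to 65983630 expected counts, and the lowest total belonged to replicate 1 of the 20 µg, 2 dose tumors. Melanoma markers (7 genes such as Pmel and Dct) summed to between 7409 and 25110 CPM (counts over the TMM-scaled library size, the unit of all levels given here) in every tumor and so were present throughout. The lowest sums, 7409 and 12880, were in the 20 µg, 2 dose tumors. These 2 tumors also differed most from each other, with 27.42% of tested genes over 2-fold apart, against 4.02% to 12.15% in the other groups. Il17a had 0 counts in all 18 tumors, which allows at most 0.00383 CPM over all libraries together, and was not tested. The other 7 genes passed the filter on low counts. Replicates were separate tumors, 2 per group, so every SD given here rests on 2 values. The SEs, 95% intervals and p-values of the main fit use a spread between tumors estimated from all 18 tumors. They do not rest on the groups compared alone. RNA of whole tumors was measured, so a higher level from more cells of a type cannot be told apart from more RNA per cell.

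Cxcl1, a chemokine made by many tissue cells on inflammatory stimulation, stood at 0.109 and 0.119 CPM in the PBS tumors after 1 dose. It was at 13.4 and 14.6 CPM with exoCDN2, 6.74 and 16.9 CPM with 20 µg of CDN2, and 29.5 and 20.4 CPM with 100 µg. Unloaded EVs gave 1.53 and 0.900 CPM, between PBS and the CDN2 groups, and no tumor given 1 dose with CDN2 overlapped the PBS or EV tumors. After 2 doses Cxcl1 was at 0.225 and 0.350 CPM with PBS, 2.88 and 0.592 CPM with exoCDN2, and 44.2 and 6.50 CPM with 20 µg of CDN2. The tumors given CDN2 of unstated amount, at 0.321 and 0.240 CPM, overlapped PBS. By group mean, the 20 µg, 2 dose tumors (25.3 ± 26.6 CPM, SD, n = 2) and the 100 µg, 1 dose tumors (24.9 ± 6.44 CPM) came first and did not differ beyond their spread. The order of the next groups, exoCDN2 at 14.0 ± 0.827 CPM and 20 µg of CDN2 at 11.8 ± 7.16 CPM after 1 dose, was also within their spread.

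Cxcl2, which neutrophils and macrophages make as well as respond to, stayed low after PBS, at 0.481 and 0.357 CPM after 1 dose and 0.347 and 0.0438 CPM after 2. After 1 dose it was at 11.6 and 10.5 CPM with exoCDN2, 3.82 and 10.1 CPM with 20 µg of CDN2, and 14.96 and 17.1 CPM with 100 µg, all above the PBS tumors. With 2 doses of 20 µg of CDN2, Cxcl2 was at 1531 and 203.6 CPM, so that even the lower of these tumors exceeded every tumor of the other 8 groups. With 2 doses exoCDN2 gave 24.3 and 6.12 CPM, a range that covers the 1 dose exoCDN2 tumors. Unloaded EVs gave 2.01 and 0.575 CPM and CDN2 of unstated amount 0.493 and 0.719 CPM.

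Cxcl3 was likewise highest with 2 doses of 20 µg of CDN2, with a wider gap between the dose numbers for that amount. It was at 0.219 and 0.238 CPM after 1 dose of PBS, 1.96 and 2.39 CPM with exoCDN2, 0.397 and 0.693 CPM with 20 µg of CDN2, and 2.34 and 1.14 CPM with 100 µg. After 2 doses it was at 0.123 and 0.0219 CPM with PBS, 7.65 and 2.34 CPM with exoCDN2, and 527.5 and 71.2 CPM with 20 µg of CDN2. The 20 µg tumors thus held little Cxcl3 after 1 dose and, of all 18 tumors, the most after 2 doses. CDN2 of unstated amount gave 0.685 and 0.746 CPM, and unloaded EVs 0.929 and 0.150 CPM. The 20 µg, 1 dose tumors lay within this EV range for Cxcl3, which they did not for Cxcl2.

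Cxcl5, a ligand best known from epithelial cells, had a different order. After 1 dose it was at 0.306 and 0.357 CPM with PBS, with every other 1 dose group above these values. It was at 3.26 to 3.97 CPM with unloaded EVs, 12.6 to 14.97 CPM with exoCDN2, 2.43 to 3.13 CPM with 20 µg of CDN2 and 5.56 to 8.40 CPM with 100 µg. ExoCDN2 thus had the highest levels after 1 dose, and unloaded EVs were above 20 µg of CDN2. After 2 doses Cxcl5 was at 1.35 and 0.591 CPM with PBS, 12.1 and 2.41 CPM with exoCDN2, and 39.0 and 5.15 CPM with 20 µg of CDN2, so these last groups overlapped.

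Cxcr2, the receptor, had its 1 dose maximum with exoCDN2, at 8.03 and 4.39 CPM, against 1.36 and 2.33 CPM with 20 µg of CDN2 and 1.05 and 1.26 CPM with 100 µg. Unloaded EVs gave 1.40 and 0.325 CPM, the higher above both 100 µg tumors and within the 20 µg range. PBS tumors held 0.109 and 0.0396 CPM after 1 dose and 0.123 and 0.0219 CPM after 2. After 2 doses it was at 4.15 and 1.04 CPM with exoCDN2 and 55.8 and 12.1 CPM with 20 µg of CDN2. The 20 µg, 2 dose tumors were again above every other tumor, and CDN2 of unstated amount (0.0428 and 0.107 CPM) was within the PBS range.

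Csf3 was at or below 0.0656 CPM in all 4 PBS tumors. After 1 dose it was at 2.52 and 2.71 CPM with exoCDN2, 0.743 and 3.38 CPM with 20 µg of CDN2, and 2.44 and 2.60 CPM with 100 µg, ranges that overlap. After 2 doses exoCDN2 tumors held 0.370 and 0.0282 CPM, the lower below all 4 PBS tumors, and 20 µg of CDN2 gave 17.2 and 1.51 CPM. The exoCDN2 tumors of 1 and 2 doses did not overlap.

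Csf2 had 0 or 1 count in each PBS and EV library, and 0 in both tumors given CDN2 of unstated amount. It was at 0.436 and 0.414 CPM with exoCDN2, 0.471 and 0.305 CPM with 20 µg of CDN2 and 0.879 and 0.495 CPM with 100 µg after 1 dose. After 2 doses it was at 0.253 and 0.0705 CPM with exoCDN2 and 5.05 and 0.743 CPM with 20 µg of CDN2. An antisense gene, Gm12223, overlaps Csf2, and the sources used here do not say whether counting used strand, so its reads cannot be told apart from those of Csf2.

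**Figure D2:**
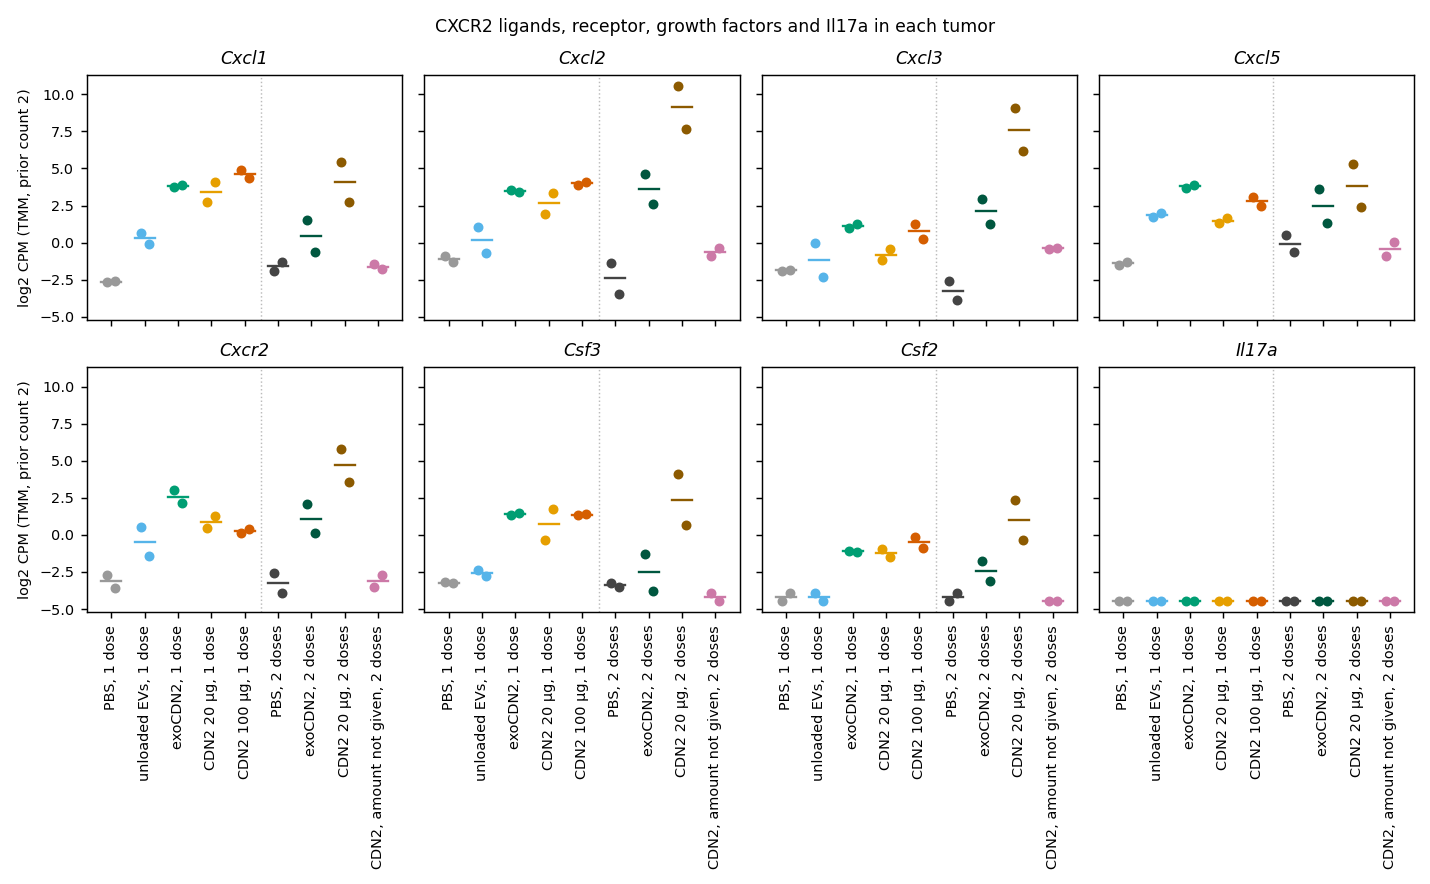
Level of each gene in every tumor, as log2 CPM with a prior count of 2 (vertical axis), by group (horizontal axis); points are tumors, bars are means of 2 tumors, and the dotted line parts 1 dose from 2 doses. The 20 µg, 2 dose tumors are highest for Cxcl2, Cxcl3 and Cxcr2, at 203.6 and 1531 CPM for Cxcl2, while Il17a is at 0 counts throughout.

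To learn which changes exceeded the spread between tumors, every group was set against the PBS tumors given as many doses, with the quasi-likelihood test of edgeR. Calls needed both a Benjamini-Hochberg p under 0.05 over the 17110 genes tested and a change of more than 2-fold. Keratinocyte markers summed to 135.3 and 74.62 CPM in the PBS tumors of 1 dose and to 3.565 to 15.85 CPM in the exoCDN2 and free CDN2 tumors of 1 dose, and their part in these comparisons was not tested. The comparisons after 1 dose share their PBS tumors, as do those after 2 doses, and so are not independent.

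Unloaded EVs were compared with PBS to see what the vesicles do on their own, and 0 of the 6 genes given a fold were called, with 0.0% of all genes called. Csf2, with at most 3 counts in both groups, is given no fold here. Of the 6, 3 had an unadjusted p under 0.05 (515 of all genes), and DESeq2 called 0 of the 6 and 35 of all genes. With no filter on low counts 4 of the 6 were called (Cxcl1, Cxcl2, Cxcl5 and Cxcr2), with 204 of all genes. Cxcl1, Cxcl5 and Cxcr2 had fitted log2 differences of 3.39 ± 1.07 (SE), 3.43 ± 0.92 and 3.53 ± 1.13, with edgeR adjusted p of 1.0, 0.69 and 1.0. The 95% intervals, 1.09 to 5.69, 1.46 to 5.41 and 1.11 to 5.96, lie above 0 before any adjustment for the number of genes. EV replicate 1 had 65.68 CPM of summed keratinocyte markers and replicate 2 had 4.523 CPM, below both PBS tumors.

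With 1 dose of exoCDN2, 5 of 7 genes rose, where 2.81% of all genes were called and 2.29% were higher. The log2 fold changes were 6.90 ± 1.05 for Cxcl1 (edgeR adjusted p = 0.0016), 6.36 ± 1.08 for Cxcr2 (0.0038), 5.36 ± 0.96 for Cxcl5 (0.0052), 5.33 ± 1.25 for Csf3 (0.032) and 4.72 ± 1.03 for Cxcl2 (0.020). These correspond to 120-fold for Cxcl1, 81.9-fold for Cxcr2 and 26.4-fold for Cxcl2. Cxcl3 (3.23 ± 1.03, adjusted p = 0.13) and Csf2 (adjusted p = 0.066) were not called in this fit. DESeq2 called all 7, with 706 of all genes. An unadjusted p under 0.05 was likewise found for all 7 with edgeR, and for 2462 of all genes. Csf3, with at most 7 counts in any PBS or EV tumor, and Csf2 passed the filter on low counts only through tumors given a labelled amount of CDN2, so their calls here and below are set in part by the filter and are a description. Csf2 had 40 counts against 1 in PBS, a ratio of 41.0 with an exact counting interval of 6.94 to 1660. Without either PBS tumor 1 of the genes, Cxcl1, stayed called, and without either exoCDN2 tumor 3 did (Cxcl1, Cxcl5 and Cxcr2).

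Free CDN2 at 20 µg raised 4 of 7 genes after 1 dose, with 3.26% of all genes called and 2.32% higher. Cxcl1 rose by 6.65 ± 1.05 on the log2 scale (edgeR adjusted p = 0.0021), Csf3 by 4.98 ± 1.25 (0.041), Cxcr2 by 4.60 ± 1.09 (0.029) and Cxcl2 by 4.05 ± 1.03 (0.043). Cxcl5 (3.05 ± 0.92, adjusted p = 0.10), Cxcl3 (1.23 ± 1.20, 0.75) and Csf2 (adjusted p = 0.074) were not called. These calls lean on single tumors: without PBS replicate 2 none was left, and without PBS replicate 1 or CDN2 replicate 2 only Cxcl1 was, in the former case at the threshold (adjusted p = 0.050). DESeq2 called 6 of 7 genes with 20 µg and with 100 µg, all but Cxcl3, with 721 and 643 of all genes. At 100 µg 5 of 7 genes rose in the main fit, with 2.5% of all genes called and 1.88% higher. They were Cxcl1 (7.73 ± 1.07, adjusted p = 0.0011), Csf2 (5.71 ± 1.31, 0.033), Csf3 (5.27 ± 1.25, 0.036), Cxcl2 (5.25 ± 1.04, 0.014) and Cxcl5 (4.38 ± 0.93, 0.021). Csf2, with 56 counts against 1 (a ratio of 66.2 with a counting interval of 11.4 to 2660), and Csf3 are the genes whose calls the filter set in part, which leaves Cxcl1, Cxcl2 and Cxcl5. Leaving out any of the 4 tumors left 1 or 2 genes called, Cxcl1 among them each time.

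After 2 doses of 20 µg of CDN2 all 7 tested genes rose, while 30.4% of all genes were called and 19.9% were higher. Cxcl2 rose by 12.07 ± 1.31 (edgeR adjusted p = 2.1e-05) and Cxcl3 by 11.93 ± 1.26 (1.7e-05) on the log2 scale. Cxcr2 rose by 8.79 ± 1.13 (7.1e-05), Csf2 by 7.72 ± 1.27 (0.00047), Csf3 by 7.38 ± 1.31 (0.00063), Cxcl1 by 6.44 ± 0.97 (0.00020) and Cxcl5 by 4.49 ± 0.88 (0.0013). Csf2 had 118 counts against 1, a ratio of 201 with a counting interval of 35.4 to 8010. The limit that the filter puts on Csf2 and Csf3 holds here too. The log2 change of Cxcl2 exceeded that of Cxcl1. All 7 stayed called without any 1 of the 4 tumors and under every other setting tried. The size is less fixed than the direction, since the 2 treated tumors differed by 4.63-fold for Cxcr2 to 11.4-fold for Csf3. Replicate 1, the higher tumor for all 7, also held 43.56 CPM of summed keratinocyte markers against 7.907 CPM in replicate 2 and 2.014 and 2.96 CPM with PBS, and the part of skin tissue was not tested.

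ExoCDN2 raised 4 of 7 genes after 2 doses, with 11.2% of all genes called and 8.83% higher. Cxcl2 rose by 6.23 ± 1.14 (edgeR adjusted p = 0.0019), Cxcl3 by 6.02 ± 1.20 (0.0035), Cxcr2 by 5.08 ± 1.08 (0.0053) and Cxcl5 by 2.89 ± 0.84 (0.031). Cxcl1 (2.57 ± 0.92, adjusted p = 0.076), Csf2 (0.13) and Csf3 (1.77 ± 1.46, 0.48) were not called. DESeq2 called 5 of 7, Cxcl1 among them, with 2025 of all genes. Only Cxcl2 kept its call without any 1 of the 4 tumors; it was the only gene called without PBS replicate 2, and Cxcl2 and Cxcl3 were called without exoCDN2 replicate 1. That exoCDN2 tumor held 100.7 CPM of summed keratinocyte markers, against 3.453 CPM in its replicate and 2.014 and 2.96 CPM in the PBS tumors, and was the higher tumor for all 7 genes; the part of skin tissue was not tested.

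CDN2 of unstated amount, which may also have been 20 µg, was compared with PBS after 2 doses, and 0 of 6 genes were called (Csf2 again had no fold), with 0.959% of all genes called. Of the 6, 1 (Cxcl3) had an unadjusted p under 0.05, as did 1787 of all genes (3.23 ± 1.40 on the log2 scale, edgeR adjusted p = 0.45, 95% interval 0.21 to 6.24). DESeq2 called 0 of the 6, with 359 of all genes. Cxcl1 differed by -0.02, with an interval of -2.36 to 2.33, so changes of up to about that size were not detectable.

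**Figure D3:**
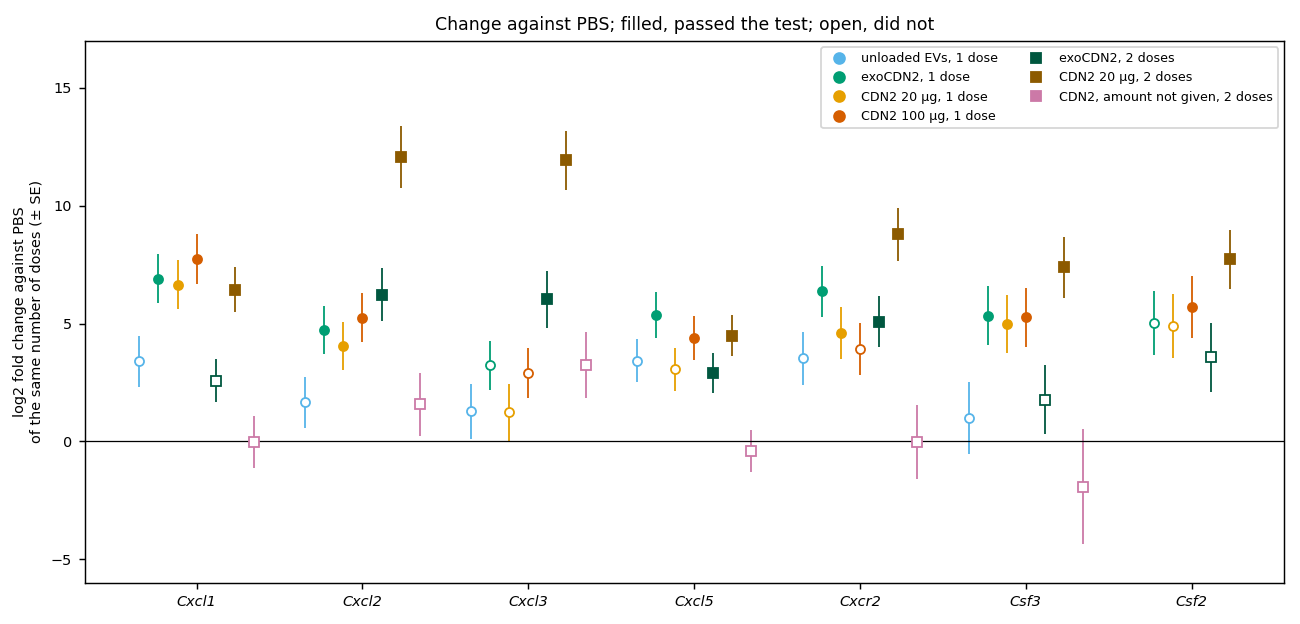
Log2 fold change of each tested gene against the PBS tumors given as many doses, with standard errors, from the edgeR fit; circles are 1 dose and squares 2 doses, filled where the call was made and open where not. Free CDN2 at 20 µg for 2 doses reaches 12.07 for Cxcl2 and 11.93 for Cxcl3, and Cxcl1 is between 6.44 and 7.73 with free CDN2 in all 3 labelled amount groups; Csf2 is left out where both groups had 3 counts or fewer.

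Loaded and unloaded EVs were compared to separate CDN2 from its carrier. Cxcl1 was the 1 gene called of 7 (2.92% of all genes, 2.51% higher), at 3.52 ± 0.82 on the log2 scale (edgeR adjusted p = 0.028). The other 6 had fitted differences of 1.93 to 4.90, all toward higher levels with CDN2, and for Csf3 the difference was 4.34 ± 1.15 (adjusted p = 0.060). At an unadjusted p under 0.05 there were 6 of 7 (2246 of the 17110 genes tested). DESeq2 called 4 of 7, Cxcl1, Cxcl2, Csf3 and Csf2, with 683 of all genes, against 499 with edgeR. Without any 1 of the 4 tumors the call of Cxcl1 was lost, and its log2 difference was 3.19 to 3.96.

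ExoCDN2 with 0.1 µg and free CDN2 with 20 µg were set side by side after 1 dose, and 0 of 7 genes were called (0.24% of all genes). An unadjusted p under 0.05 was found for 2 of 7 genes and for 2818 of the 17110 tested. DESeq2 also called 0 of 7, with 320 of all genes, against 41 in the main fit. Fitting only the groups compared called 2 (Cxcl3 and Cxcl5), with 354 of all genes. Leaving out the filter called 3, with 634 of all genes. Cxcl1 differed by 0.25 with a 95% interval of -1.29 to 1.79, Cxcl2 by 0.67 (-1.06 to 2.41) and Csf3 by 0.35 (-1.59 to 2.28), intervals that leave room for differences of over 2-fold in either direction. Fitted differences were larger for Cxcl5 at 2.31 (0.60 to 4.02, edgeR adjusted p = 0.18), Cxcl3 at 2.00 (-0.02 to 4.03, 0.31) and Cxcr2 at 1.75 (0.09 to 3.42, 0.28), with exoCDN2 the higher. Between 100 and 20 µg of free CDN2, 0 of 7 genes were called (0.491% of all genes). None of the 7 reached an unadjusted p under 0.05, which 2375 of all genes did, and DESeq2 called 0, with 360 of all genes. Fitted differences ran from -0.67 for Cxcr2 (-2.39 to 1.05) to 1.68 for Cxcl3 (-0.38 to 3.75).

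After 2 doses 6 of 7 genes were lower with exoCDN2 than with 20 µg of CDN2, where 19.2% of all genes were called in either direction and 11.8% were lower. The log2 differences were -5.91 ± 0.89 for Cxcl3 (edgeR adjusted p = 0.0024), -5.84 ± 0.95 for Cxcl2 (0.0028), -5.61 ± 1.12 for Csf3 (0.0052), -4.16 ± 0.91 for Csf2 (0.0074), -3.88 ± 0.81 for Cxcl1 (0.0059) and -3.71 ± 0.81 for Cxcr2 (0.0068). Cxcl5 was not called (-1.59 ± 0.76, adjusted p = 0.12), and its groups overlapped. With each tumor left out in turn the difference was -6.96 to -3.84 for Cxcl3, -7.11 to -3.75 for Cxcl2 and -8.19 to -3.01 for Csf3. For Csf2, Cxcl1 and Cxcr2 it was -5.24 to -2.24, -5.37 to -1.94 and -4.98 to -2.23. The count of 6 borrows its estimate of spread from all 18 tumors. Fitted on these 4 tumors alone, 30 of all genes were called, against 3284 in the main fit, and 0 of the 7. Without CDN2 replicate 1, or without exoCDN2 replicate 2, only Cxcl2 and Cxcl3 were.

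The change from 1 to 2 doses was tested as the difference between the 2 changes against PBS. For 20 µg of CDN2 it was called for 2 of the 6 genes other than Csf2, which had too few counts with PBS (15.7% of all genes, 10.9% higher), Cxcl3 at 10.70 ± 1.98 (edgeR adjusted p = 0.0038) and Cxcl2 at 8.02 ± 1.65 (0.0063). For Cxcl1 it was -0.21 ± 1.33 (95% interval -3.08 to 2.66, adjusted p = 0.93) and for Cxcr2 4.19 ± 1.87 (adjusted p = 0.13). In the tumors titled 20 µg the repeat dose was thus accompanied by a larger change against PBS for Cxcl2 and Cxcl3. For Cxcl1 a change in either direction of several-fold lies within the interval. For exoCDN2 0 of 6 genes were called (6.69% of all genes). Of these, 1, Cxcl1, had an unadjusted p under 0.05, as did 3421 of all genes (-4.34 ± 1.44, edgeR adjusted p = 0.092). DESeq2 called 1, also Cxcl1, with 1477 of all genes. PBS tumors of 2 doses and 1 dose were compared as well, and 0 of 6 genes were called (1.27% of all genes). Of the 6, 0 had an unadjusted p under 0.05 (1564 of all genes), and DESeq2 called 0, with 378 of all genes.

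The make-up of the 4 ligands was compared on CPM per kb of exon, so that genes of different length could be added. In the PBS tumors of 1 dose the 4 ligands summed to 0.518 and 0.495 CPM per kb, and they reached 20.1 and 21.6 with exoCDN2, 6.86 and 15.8 with 20 µg and 28.1 and 22.4 with 100 µg. Cxcl1 was the leading ligand in all 4 free CDN2 tumors of 1 dose, with 48.4% to 57.1% of the sum. In the exoCDN2 tumors of 1 dose Cxcl1 (35.6% and 36.1%) and Cxcl5 (33.6% and 37.2%) had nearly equal parts. Cxcl5 made up 46.0% and 72.7% with unloaded EVs and 69.2% and 59.7% with PBS after 2 doses, where all levels were low.

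After 2 doses of 20 µg of CDN2 the ligands summed to 935.8 and 125.0 CPM per kb, and Cxcl2 held 79.1% and 78.7%, Cxcl3 16.1% and 16.3%, Cxcl1 2.52% and 2.77% and Cxcl5 2.23% and 2.21%. Although their sums differed, these 2 tumors had almost the same make-up. In the exoCDN2 tumors of 2 doses Cxcl2 held 53.5% and 56.5%, Cxcl5 29.6% and 24.7%, and Cxcl1 6.98% and 6.03%. The ratio of Cxcl2 to Cxcl1 per kb was 0.461 to 0.785 in the 6 tumors of 1 dose with CDN2, 7.66 and 9.37 after 2 doses of exoCDN2, and 31.4 and 28.4 after 2 doses of 20 µg. The ranges of these 3 sets do not overlap. The tumors given 2 doses of CDN2 of unstated amount, which may also have been 20 µg, were at 1.39 and 2.72, below both other sets of 2 doses and within the PBS range. In PBS tumors, where each ligand rests on few counts, the ratio ran from 0.113 to 3.99. With unloaded EVs it was 1.19 and 0.579, the latter within the range of the 1 dose tumors with CDN2.

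**Figure D4:**
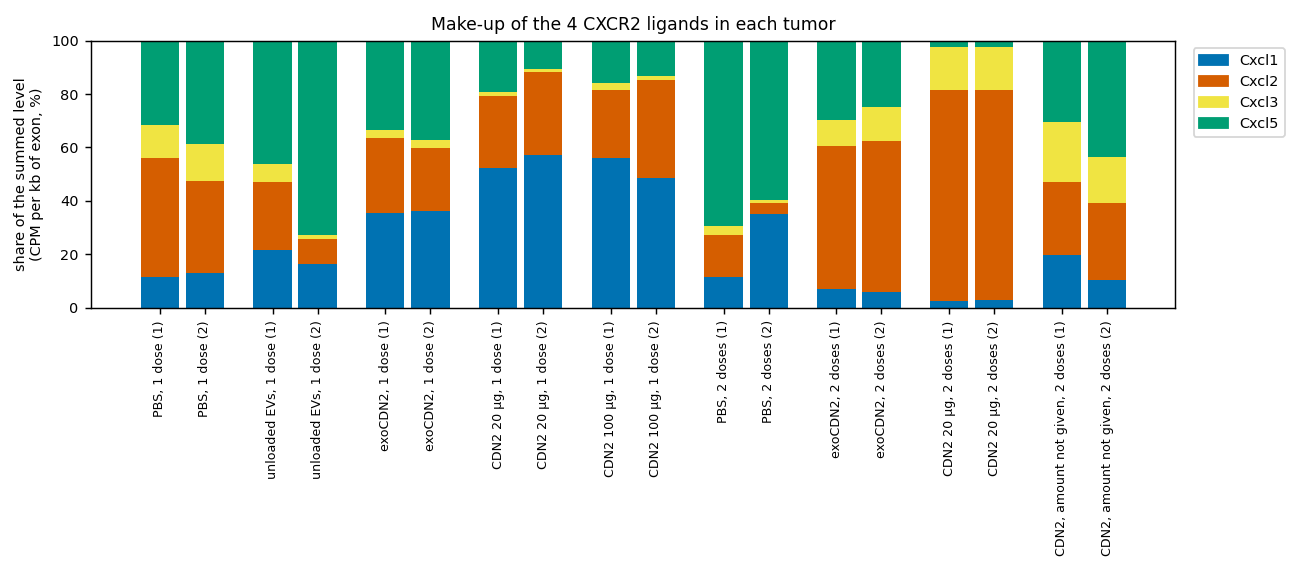
Share of the 4 CXCR2 ligands in their summed level (CPM per kb of exon, in percent) in each of the 18 tumors, replicate number in parentheses. Cxcl1 takes 48.4% to 57.1% in the free CDN2 tumors of 1 dose, and Cxcl2 takes 79.1% and 78.7% in the 20 µg, 2 dose tumors.

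Other genes of the CXCR2 system were read from a list of 10 ligands and receptors that includes 5 of the genes above; 9 were tested. All 9 rose with 2 doses of 20 µg of CDN2, and 5 rose with 1 dose of exoCDN2, 4 with 20 µg, 3 with 100 µg and 4 with 2 doses of exoCDN2. Over all genes tested 19.9% were higher with 2 doses of 20 µg and 8.83% with 2 doses of exoCDN2. With 1 dose of exoCDN2, 20 µg and 100 µg the shares were 2.29%, 2.32% and 1.88%. These counts largely repeat genes described above and are a description. The 3 with 100 µg and the 4 with 2 doses of exoCDN2 were all among those genes. After 1 dose the only gene added was Ackr1 with exoCDN2 and Ppbp with 20 µg. Ppbp, a platelet gene whose processed product also acts on CXCR2, rose with 20 µg of CDN2 after 1 dose (3.74 ± 0.90, edgeR adjusted p = 0.031) and after 2 doses (6.82 ± 0.97, 0.00014). It was at 1.21 and 3.60 CPM with 20 µg and 0.515 and 0.368 CPM with exoCDN2 after 1 dose, and the difference of -2.43 ± 0.81 between these groups was not called (adjusted p = 0.17). After 2 doses Ppbp was lower with exoCDN2 than with 20 µg by 5.39 on the log2 scale (SE 0.87, adjusted p = 0.0028, higher in 2 of 2 tumors with 20 µg). Ackr1, a decoy receptor of venular endothelium that binds these chemokines without signaling, rose with 1 dose of exoCDN2 by 3.65 ± 0.78 (adjusted p = 0.018) and with 2 doses of 20 µg by 3.12 ± 0.79 (0.0061).

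The growth factors belong to a list of 12 granulocyte growth factors and receptors, of which 10 were tested. With 2 doses all 10 rose with 20 µg of CDN2 and 7 with exoCDN2, and after 1 dose 3 rose with exoCDN2, 2 with 20 µg and 3 with 100 µg. The shares of all genes that were higher, in the same order, were 19.9% and 8.83% after 2 doses. After 1 dose they were 2.29%, 2.32% and 1.88%. Csf3 is counted in each of these 1 dose groups and Csf2 with 100 µg, and the filter set their calls in part. Without them Csf1 was left with 20 µg and with 100 µg, and Csf1 and Csf3r with exoCDN2. Csf2 and Csf3 are also among the 10 with 2 doses of 20 µg. Csf3r, the receptor of G-CSF on neutrophils, was at 12.2 and 6.33 CPM with 1 dose of exoCDN2 and rose by 2.42 ± 0.53 (edgeR adjusted p = 0.020); the changes with 20 µg (1.58 ± 0.52, 0.14) and 100 µg (0.78 ± 0.52, 0.61) were not called. Csf3r rose by 3.32 ± 0.55 with 2 doses of exoCDN2 (adjusted p = 0.00092), the comparison in which its ligand Csf3 was not called. Csf1, the macrophage growth factor, rose in all 5 comparisons of a labelled CDN2 amount with PBS, by 1.81 to 3.38.

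Il17a sits in a list of 15 genes of the IL-17 axis, of which 9 were tested. After 1 dose 0 of the 9 rose in any CDN2 group against PBS. With 2 doses of 20 µg of CDN2 3 rose, namely Lcn2, an antibacterial protein of epithelium and neutrophil granules (7.30 ± 0.83, edgeR adjusted p = 2.8e-05), Nfkbiz, a co-activator of IL-17 and IL-1 targets (1.56 ± 0.39, 0.0056), and Zc3h12a, an RNase that restrains the same response (1.48 ± 0.42, 0.012). These 3 of 9 stand beside 19.9% of all genes higher in that comparison, a share too near to read the count as a result about the list. Lcn2 and the receptor subunit Il17rc rose with 2 doses of exoCDN2 (3.60 ± 0.72 and 1.28 ± 0.37, adjusted p = 0.0037 and 0.031), where 8.83% of all genes were higher. Lcn2 is also a granule gene of neutrophils, and it went from 0.898 and 1.27 CPM with PBS to 282 and 59.9 CPM with 2 doses of 20 µg. Of 10 T helper 17 and γδ T cell markers 3 were tested, of which 0 rose after 1 dose of any CDN2 group, 1 with 2 doses of exoCDN2 and 2 with 2 doses of 20 µg, beside 8.83% and 19.9% of all genes; with 3 genes tested these counts say little. Il17f, the nearest relative of Il17a, which was named here after its values were seen, was at 0.0533 CPM or less in every tumor.

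Of 18 genes of pathways that induce CXCR2 ligands (IL-1, TNF, IL-6 and NF-κB components), 16 were tested. The list also holds genes that restrain these pathways, Tnfaip3, Nfkbia and Il1rn. After 1 dose 11 of the 16 were higher with exoCDN2, 11 with 20 µg and 9 with 100 µg, beside 2.29%, 2.32% and 1.88% of all genes. Il6, a cytokine of the acute response, was at 42.1 and 35.6 CPM with exoCDN2, 19.0 and 53.9 CPM with 20 µg and 61.2 and 44.9 CPM with 100 µg, against 0.241 and 0.317 CPM with PBS. It rose by 7.10 ± 1.06, 7.01 ± 1.06 and 7.55 ± 1.08 (edgeR adjusted p = 0.0015, 0.0017 and 0.0014). After 2 doses of exoCDN2 Il6 was at 2.20 and 0.550 CPM and was not called (2.65 ± 1.08, adjusted p = 0.12), as Cxcl1 was not. Il1b, the main inflammasome product, stayed high with 2 doses of exoCDN2, at 38.1 and 10.1 CPM (5.05 ± 0.80, adjusted p = 0.00069), and reached 279 and 56.2 CPM with 2 doses of 20 µg (7.84 ± 0.88, 2.7e-05). In all, 7 genes of the list rose with 2 doses of exoCDN2 and 13 with 2 doses of 20 µg, and 10 were lower with exoCDN2 than with 20 µg, beside 8.83% and 19.9% of all genes higher and 11.8% lower. The list medians against PBS were 2.96, 2.45 and 2.32 after 1 dose of exoCDN2, 20 µg and 100 µg, beside -0.02 to 0.0 over all genes.

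Of 20 genes for adhesion and other attractants, all tested, 6 rose with 1 dose of exoCDN2, 3 with 20 µg and 3 with 100 µg, which also had 1 lower, beside 2.29%, 2.32% and 1.88% of all genes higher and, with 100 µg, 0.614% lower. Sele, encoding the endothelial E-selectin that slows rolling neutrophils, rose with 1 dose of exoCDN2 (3.81 and 2.12 CPM against 0.109 and 0.119 CPM, 4.66 ± 0.69, edgeR adjusted p = 0.0013), and Selp, encoding P-selectin, rose by 4.20 ± 0.65 (0.0019). Sele was not called with 20 µg (2.40 ± 0.69, adjusted p = 0.082) or 100 µg (2.04 ± 0.70, 0.17), and Selp was (2.61 ± 0.62 and 2.66 ± 0.62, 0.029 and 0.033). Endothelial markers, 5 genes, had 4 lower with 20 µg after 1 dose, beside 0.935% of all genes lower, and 0 called with exoCDN2 or 100 µg. After 2 doses Vwf (-1.13 ± 0.26, adjusted p = 0.0033) and Kdr (-1.10 ± 0.27, 0.0046) were lower with 20 µg, beside 10.5% of all genes lower, and 0 of 5 were called with exoCDN2. The part of endothelial cells in the selectin levels was not tested. After 2 doses neither selectin was called in any group, with Sele at 0.112 and 0.106 CPM with 20 µg. The counts for the whole list were then 15 of 20 higher with exoCDN2 and 16 of 20 with 20 µg, where 8.83% and 19.9% of all genes were higher, with the leukocyte genes Itgb2 and C5ar1 among them. For Selp the change from 1 to 2 doses of exoCDN2, relative to PBS, was called (-3.16 ± 0.86, adjusted p = 0.041).

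Neutrophil RNA was followed with 21 marker genes, of which 19 were tested. The summed level was 26.08 and 26.47 CPM with PBS after 1 dose, 31.26 and 44.08 CPM with unloaded EVs, 124.4 and 84.28 CPM with exoCDN2, 39.15 and 79.54 CPM with 20 µg of CDN2 and 51.04 and 54.97 CPM with 100 µg. After 2 doses it was 15.57 and 11.76 CPM with PBS, 201.1 and 90.55 CPM with exoCDN2, 1449 and 350.7 CPM with 20 µg, and 28.29 and 30.49 CPM with CDN2 of unstated amount. The tumor with the most of these markers was also the highest of the 18 for all 7 detected genes. Against PBS, 3 of 19 rose with 1 dose of exoCDN2, 2 with 20 µg and 1 with 100 µg, and after 2 doses 13 rose with exoCDN2 and 19 with 20 µg. With 2 doses 14 were lower with exoCDN2 than with 20 µg. The shares of all genes called higher were 2.29%, 2.32% and 1.88% after 1 dose and 8.83% and 19.9% after 2 doses, and 11.8% were lower in the last comparison. Some markers passed the filter only through the 20 µg, 2 dose tumors and so had to differ there, among them Ly6g and Camp. Camp had 25 and 15 counts in those tumors and 0 or 1 in every other. The counts of 19 and 14 are therefore a description and support nothing by themselves.

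Retnlg, a neutrophil gene, was at 5.25 and 2.81 CPM with 1 dose of exoCDN2 and rose by 6.20 ± 1.18 (edgeR adjusted p = 0.0085). With 1 dose of 20 µg of CDN2 it also rose, by 5.42 ± 1.19 (edgeR adjusted p = 0.019). Ly6g, the defining surface marker of mouse neutrophils, was at 6.22 and 1.38 CPM with 2 doses of 20 µg and at 0.139 CPM or less in the other 16 tumors, levels given as a description only. The granule precursor gene Elane, likewise named after its values were seen, was at 0.224 CPM or less throughout. Cxcr2 is expressed by neutrophils and was kept out of the marker list, and the part of neutrophil number in the 7 genes' levels was not tested. The sum of macrophage and monocyte markers moved too. It was 306.7 to 717.7 CPM with 2 doses of 20 µg, 325.8 to 517.5 CPM with exoCDN2 and 64.62 to 90.3 CPM with PBS. Of 6 genes 4 rose with each, beside 19.9% and 8.83% of all genes higher. With 20 µg Mrc1 was lower (-1.55 ± 0.43, edgeR adjusted p = 0.01), beside 10.5% of all genes lower. Adgre1 was at 13.9 and 14.73 CPM with 20 µg and 46.33 and 32.68 CPM with exoCDN2, against 18.25 and 13.09 CPM with PBS. Fibroblast markers summed to 855.7 and 1823 CPM with 2 doses of 20 µg and 980.6 and 434.9 CPM with exoCDN2, against 352.0 and 352.4 CPM with PBS, and 4 and 3 of 6 rose, beside 19.9% and 8.83% of all genes higher. T cell markers, 4 genes, summed to 20.7 and 16.3 CPM with 2 doses of exoCDN2, 4.88 and 5.31 CPM with 20 µg and 1.31 and 0.810 CPM with PBS, and 3 of 4 rose both with exoCDN2 and with 20 µg, beside the same shares of all genes. After 1 dose they summed to 5.05 and 6.60 CPM with PBS and 1.10 and 1.11 CPM with 100 µg, where 3 of 4 were lower, beside 0.614% of all genes lower. The part of these cells in the levels of the 7 genes was not tested.

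**Figure D5:**
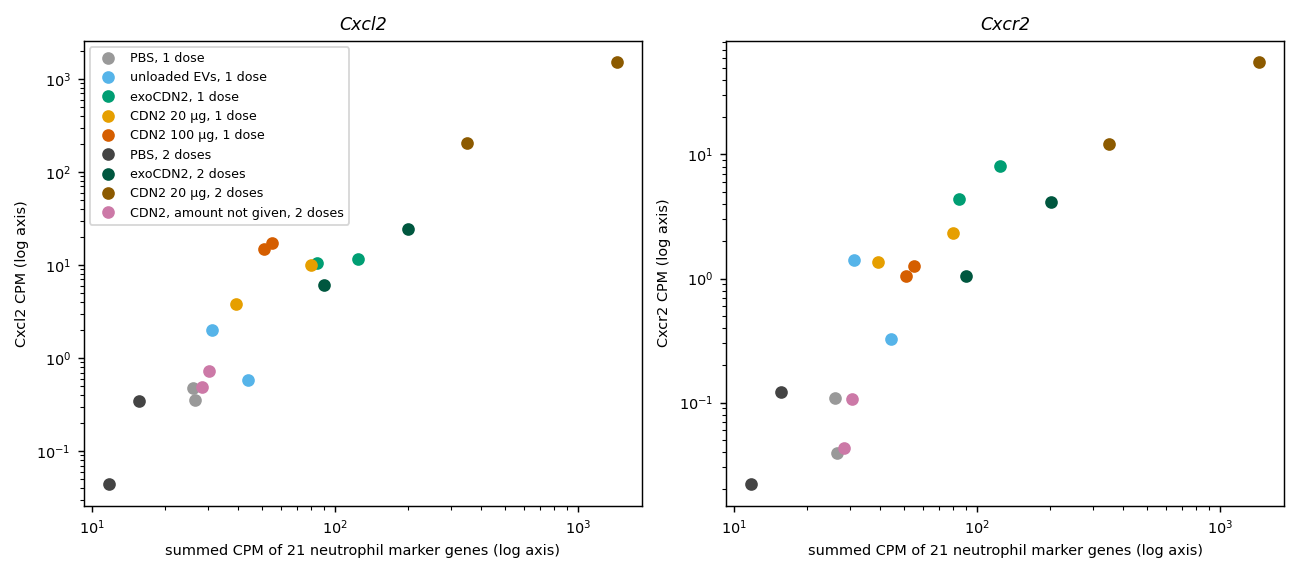
Level of Cxcl2 (left) and Cxcr2 (right) in CPM against the summed CPM of 21 neutrophil marker genes, both on log axes, 1 point per tumor, colored by group. The 20 µg, 2 dose tumors lie at 1449 and 350.7 CPM of markers and at 1531 and 203.6 CPM of Cxcl2; the 100 µg, 1 dose tumors lie above the exoCDN2, 1 dose tumors for Cxcl2 (14.96 and 17.1 against 11.6 and 10.5 CPM) and below them for Cxcr2.

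Genes whose pattern lay close to each of the 7 were found by the mean absolute difference of log2 CPM, centred on each gene's mean, over the 18 tumors. For Cxcl1 they were Has1, a hyaluronan synthase (0.524), Ptx3, a soluble pattern receptor (0.692), and Il6 (0.811). Csf3 lay close to Rnd1 (0.626), Has1 (0.702) and the NF-κB inhibitor gene Nfkbia (0.774), and Csf2 lay close to Nfkbia (0.440) and Rnd1 (0.547). Cxcl2 lay closest to Hdc (0.906), S100a9 (0.909) and Il1rl1 (0.923), Cxcl3 to Gm5483 (0.624), Slpi (0.631) and Stfa2l1 (0.820), and Cxcr2 to Retnlg (0.440), Mrgpra2b (0.558) and Il1b (0.598). Hdc, S100a9, Stfa2l1 and Retnlg are also on the neutrophil marker list. Cxcl5 had other neighbors, Il33 (0.561), Flrt2 (0.637) and Serpinb2 (0.640). Among the 7 genes themselves Cxcl1 and Csf3 were closest (0.644), Csf3 and Csf2 next (0.777), and Cxcl2 and Cxcl3 after them (0.919). Cxcl1 and Cxcl3 were farthest apart (2.267).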

How the data were processed

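Bulk RNA-seq of 18 tumors was used, in 9 groups of 2 named from the labels. The authors deposited RSEM expected counts per Ensembl gene (reads aligned to GRCm38 in OmicSoft ArraySuite), which need not be whole; they were rounded. The 8 genes had whole values (within 0.005) in all 18 tumors. Symbols came from GENCODE M21 (50376 of 50600 genes matched). Genes were kept with filterByExpr (minimum count 10, total 15), scaled by TMM and fitted with edgeR 4.0.16 (R 4.3.3), 1 mean per group over all 18 tumors, residual 9 degrees of freedom. SE was the log2 difference over the root of F, and p-values were adjusted over 17110 genes (Benjamini-Hochberg). The study's methods used DESeq2, run here as an alternative (1.42.0). No fold is given where both groups compared, or both PBS groups of a dose difference, had at most 3 counts, summed over the group. Counts were simulated for exoCDN2 against PBS after 1 dose (16630 genes). Of 200 genes set to differ 4-fold, edgeR found 176, with 7 false calls. These 200 were drawn only from genes above a floor of mean count that Csf2 did not reach. The share found therefore does not apply to genes with few counts. Depth was 21608895 to 65983630 counts, and intervals on counts cover counting error only. No 2 libraries were identical. The 8 genes and all lists were chosen with earlier results of these data known. Named list genes are at most 4 per list and comparison, by smallest p among those called, and a gene so named in any comparison may be given in the others, called or not. Neighbors are the 3 closest genes outside the 8, and 1 of them is not reported here. Alternatives were another scaling, no filter, DESeq2, fewer tumors, a replicate block, pooled PBS and leaving out each tumor. Il36a and Il36g had no match and were not analysed here.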

Additional observations from a re-analysis of the deposited data

Results flagged for a closer look

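The values for Cxcl2 and Cxcl3 stood out because the change against PBS differed between 1 and 2 doses of 20 µg of CDN2, by a test of the difference itself. For Cxcl2 the difference was 8.02 on the log2 scale (edgeR quasi-likelihood test, adjusted p = 0.0063), and it ran from 5.90 to 10.1 over 14 alternatives, called in each. For Cxcl3 it was 10.70 (adjusted p = 0.0038), with a range of 8.61 to 12.3, also called in each of 14. In each gene the 2 tumors of 2 doses were above the 2 tumors of 1 dose. The summed neutrophil markers were 1449 and 350.7 CPM in the 2 dose tumors and 39.15 and 79.54 CPM in the 1 dose tumors. Their part in the difference was not tested. PBS tumors of 2 doses against 1 differed by -1.05 for Cxcl2 and -1.60 for Cxcl3, uncalled, which enters the difference. The other 2 dose CDN2 group, of unstated amount, may also have been 20 µg. It held 0.493 and 0.719 CPM of Cxcl2 and 0.685 and 0.746 CPM of Cxcl3, uncalled against PBS in the main fit.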

How the results depend on the processing

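Over 93 pairs of a gene and a comparison, 34 were called, and none of the called ones changed direction under any alternative. The cause of the moves below was not tested. With no filter on low counts the number of genes called was 4 for EVs against PBS, 7 for 20 µg of CDN2 against PBS after 1 dose, 7 for exoCDN2 against EVs, 3 for exoCDN2 against 20 µg after 1 dose, 4 for 100 against 20 µg, 2 for CDN2 of unstated amount, 1 for PBS of 2 doses against 1 dose, and 5 for the dose difference of exoCDN2. DESeq2 called 4 for exoCDN2 against EVs and 1 for the dose difference of exoCDN2. Fitting only the groups compared gave 5 for exoCDN2 against EVs, 2 for exoCDN2 against 20 µg after 1 dose, 1 for CDN2 of unstated amount, 0 for exoCDN2 against 20 µg after 2 doses and 1 for the dose difference of exoCDN2. Without the 2 tumors of unstated amount 2 genes were called for 20 µg after 1 dose.

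Leaving out each tumor in turn gave 1 to 3 genes called for exoCDN2 against PBS after 1 dose, 0 to 4 for 20 µg, 1 to 2 for 100 µg, 0 to 0 for exoCDN2 against EVs, 1 to 5 for exoCDN2 against PBS after 2 doses, 2 to 7 for exoCDN2 against 20 µg after 2 doses and 0 to 1 for the dose difference of exoCDN2.

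Replicate numbers were shared by the groups. Deviations of same-numbered tumors had a mean correlation of 0.0136 over 36 pairs of groups (-0.184 to 0.319), so no pairing common to all groups was seen. The highest value, 0.319, was between exoCDN2 and 20 µg of CDN2 after 2 doses, and EVs and exoCDN2 after 1 dose had 0.233. With the replicate block 3 genes were called for exoCDN2 against EVs, and Cxcr2 was 0.04 for CDN2 of unstated amount and -0.04 for PBS of 2 doses against 1.

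Signs turned only for uncalled log2 differences. With pooled PBS tumors, CDN2 of unstated amount gave 0.50 for Cxcl1 and 0.16 for Cxcl5. With DESeq2 Cxcr2 was 0.02 for that group and -0.01 for PBS of 2 doses against 1. Leaving out each tumor in turn gave, for exoCDN2 against 20 µg after 1 dose, -0.25 to 1.06 for Cxcl1, -0.35 to 1.81 for Csf3 and -0.15 to 0.49 for Csf2. It gave -0.43 to 1.75 for Csf3 between 100 and 20 µg, -0.84 to 2.74 for Csf3 with 2 doses of exoCDN2 against PBS, -3.15 to 0.49 for Cxcl5 between exoCDN2 and 20 µg after 2 doses, and -0.60 to 2.01 for Cxcl3 with EVs. For CDN2 of unstated amount it gave -0.30 to 0.33 for Cxcl1, -0.98 to 0.30 for Cxcl5 and -0.75 to 1.59 for Cxcr2, and for PBS of 2 doses against 1 dose -1.62 to 0.85 for Cxcr2. For the dose difference it gave -2.58 to 0.34 for Cxcr2 with exoCDN2, and -2.19 to 0.57 for Cxcl1, -0.67 to 2.23 for Cxcl5 and -0.23 to 3.83 for Csf3 with 20 µg.

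Over all genes the count called moved by over 1.5 times in 76 of 154 fits. Against PBS after 1 dose it was 480 with exoCDN2 (168 to 1300), 557 with 20 µg (191 to 1030), 427 with 100 µg (100 to 1352) and 0 with EVs (0 to 204). After 2 doses it was 1912 with exoCDN2 (942 to 2384), 5199 with 20 µg (3060 to 7212) and 164 with CDN2 of unstated amount (0 to 713). It was 499 for exoCDN2 against EVs (254 to 1051), 41 for exoCDN2 against 20 µg after 1 dose (0 to 634), 3284 after 2 doses (30 to 6130), 84 for 100 against 20 µg (0 to 721), 217 for PBS of 2 doses against 1 (93 to 727), 1144 for the dose difference of exoCDN2 (492 to 1922) and 2683 for that of 20 µg (1179 to 5394). With 2 tumors a group, low counts in PBS limit the fold changes: Csf2 had 1 count in each PBS group.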
